A study of Mus musculus with 3 samples.

Results

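Damaged mitochondria are removed by mitophagy, in which they are enclosed in an autophagosome and delivered to the lysosome. In one route the kinase PINK1 builds up on depolarised mitochondria and marks them with phosphorylated ubiquitin, which soluble receptors (optineurin, p62 and TAX1BP1) bind. In the other route, receptors anchored in the outer mitochondrial membrane (BNIP3, BNIP3L and FUNDC1) bind the autophagosome directly. Both end on ATG8 proteins such as LC3B and GABARAPL1, which are linked to the growing autophagosome membrane. The 9 genes described here encode these proteins. They are Pink1, Bnip3, Bnip3l, Fundc1, Optn, Sqstm1, Tax1bp1, Map1lc3b and Gabarapl1, they were chosen by gene symbol from the 32285 genes counted, and every one was found. Counts of mRNA do not measure how much autophagy takes place.

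Their transcripts were counted in single cells of organoids, which are epithelial cultures grown in gel from the submandibular gland of C57BL/6 mice aged 8 to 12 weeks. Organoids from 4 animals formed a control without irradiation, a group given a photon dose of 7 Gy on day 5 and a group given the same dose of protons in the beam's plateau. All were kept in medium with Wnt3a, R-spondin1, dexamethasone and the kinase inhibitor Y27632, and were collected on day 11, 6 days after irradiation. Cells that excluded propidium iodide, a dye that enters dead cells, were sorted, and each group was pooled into 1 library, with no label tying a cell to an animal.

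With 1 library per group no difference has a replicate check and no test was possible, so each ratio compares libraries, not conditions. Levels are CPM, the counts of a gene scaled to the same total of unique molecular identifiers (UMIs) in each library, where a UMI stands for 1 captured transcript. Ranges in parentheses are exact 95% intervals that cover counting error only. A gene was counted as higher or lower where its level differed by at least 1.5-fold and its mean over both libraries was at least 25 CPM. Levels are compared for the same gene across libraries and not between genes.

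After filtering, 13219 control, 15041 photon and 13956 proton cells remained, with medians of 2757, 2808 and 2223 UMIs per cell. Mitochondrially encoded (mt-) genes made up 3.29% of all UMIs in control, 2.23% in the photon and 1.80% in the proton library. Any pair of libraries shared 49 to 56 cell barcodes, at most 0.424% of a library. All 10 luminal and all 10 basal duct markers were above 5 CPM in each library, while the immune, fibroblast, endothelial and erythroid lists each summed to at most 3.39 CPM. Acinar markers summed to 43.7 to 60.9 CPM, with Bpifa2 and Prol1 at 0 in all 3 libraries. Cycling markers summed to 103 CPM in control, 499 in the photon and 331 in the proton library, and their part in the results was not tested.

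The soluble receptor p62, encoded by Sqstm1, binds ubiquitin and ATG8 proteins, is itself degraded by autophagy, and its gene is a known target of the stress regulator NRF2. Sqstm1 (ENSMUSG00000015837, chromosome 11, 50199366 to 50210827, minus strand, GRCm38) stood at 332 CPM (327 to 338) in control, 296 (291 to 301) in the photon and 158 (153 to 162) in the proton library. The proton library was far below the other libraries, and the 3 intervals did not overlap. The proton level was 0.474 of control (0.459 to 0.489) and 0.531 of photon (0.515 to 0.548), while the photon level was 0.892 of control (0.871 to 0.913). Among all genes measured, 3.51% lay below the Sqstm1 ratio of proton to control.

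The RefSeq window (GRCm38.p6) of the 250 bases before the Sqstm1 start is shown because this gene had the lowest proton ratio of the 9. It reads 5′ to 3′ on the gene's minus strand, chr11:50210821-50211070, and holds no letters of the motifs searched below, so none are in capitals.
Sqstm1: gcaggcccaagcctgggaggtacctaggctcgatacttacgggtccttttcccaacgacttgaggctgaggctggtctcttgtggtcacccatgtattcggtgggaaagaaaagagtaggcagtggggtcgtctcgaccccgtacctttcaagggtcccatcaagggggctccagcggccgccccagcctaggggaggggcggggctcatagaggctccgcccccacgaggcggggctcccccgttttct

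TAX1BP1 and optineurin are soluble receptors that also bind ubiquitin and recruit the autophagy machinery. Tax1bp1 (ENSMUSG00000004535, chromosome 6, 52713729 to 52766780) stood at 602 CPM (595 to 610) in control, 558 (552 to 565) in the photon and 370 (364 to 376) in the proton library. Its proton level was 0.615 of control (0.602 to 0.628) and 0.663 of photon (0.649 to 0.677). Optn (ENSMUSG00000026672, chromosome 2, 5020642 to 5064051) was much flatter, at 34.4 CPM (32.6 to 36.3) in control, 31.0 (29.4 to 32.6) in the photon and 31.7 (29.9 to 33.6) in the proton library. The photon and proton intervals of Optn overlapped, and its proton level was 0.920 of control (0.850 to 0.996).

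The ATG8 proteins followed unlike courses. Map1lc3b (ENSMUSG00000031812, chromosome 8, 121590361 to 121598760), which encodes LC3B, stood at 299 CPM (294 to 304) in control, 277 (272 to 281) in the photon and 156 (152 to 160) in the proton library. As for Sqstm1 and Tax1bp1, the main step lay between photon and proton, with a proton level of 0.564 of photon (0.547 to 0.582) and 0.522 of control (0.506 to 0.539). Gabarapl1 (ENSMUSG00000030161, chromosome 6, 129533160 to 129542346) stood at 27.2 CPM (25.6 to 28.9) in control, 23.1 (21.8 to 24.5) in the photon and 29.4 (27.7 to 31.2) in the proton library. It was the only one of the 9 whose level was highest in the proton library, although its control and proton intervals overlapped. The proton level of Gabarapl1 was 1.08 of control (0.992 to 1.18) and 1.27 of photon (1.17 to 1.39), below the 1.5-fold limit.

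The membrane receptors stood highest in control and lowest in proton, although centring on genes of like GC content (last 500 transcript bases) brought the photon ratios of Bnip3l and Fundc1 to 1.01 and 1.00 of control. BNIP3 is induced by the hypoxia factor HIF. Bnip3 (ENSMUSG00000078566, chromosome 7, 138890836 to 138909519, minus strand) stood at 53.1 CPM (50.9 to 55.5) in control, 42.5 (40.6 to 44.4) in the photon and 32.1 (30.3 to 34.0) in the proton library. Its 3 intervals were apart, and its proton level was 0.605 of control (0.563 to 0.6496). Bnip3l (ENSMUSG00000022051, chromosome 14, 66985239 to 67008877), which encodes the related receptor NIX, stood at 248 CPM (243 to 253), 217 (213 to 222) and 181 (177 to 186), with a proton level of 0.733 of control (0.710 to 0.756). Fundc1 (ENSMUSG00000025040, chromosome X, 17556564 to 17572325), a receptor that acts in hypoxia, stood at 32.5 CPM (30.8 to 34.3), 28.9 (27.4 to 30.4) and 21.3 (19.8 to 22.8). The proton level of Fundc1 was 0.654 of control (0.597 to 0.715).

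The window before the Bnip3 start is shown because Bnip3 was the only member that differed by at least 1.2-fold with the mt- share of a cell in every library. It covers chr7:138909507-138909756 on the minus strand, 5′ to 3′, with the motif CACGTG in capitals.
Bnip3: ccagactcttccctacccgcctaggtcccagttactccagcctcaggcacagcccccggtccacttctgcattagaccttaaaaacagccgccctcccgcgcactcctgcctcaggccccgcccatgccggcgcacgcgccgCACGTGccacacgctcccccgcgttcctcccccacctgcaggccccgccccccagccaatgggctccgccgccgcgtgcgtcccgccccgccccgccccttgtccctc

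The capitals start 108 bases before the annotated start. They hold ACGTG, a form of the HIF core, on both strands. They are also the CLEAR core CACGTG, a motif bound by TFEB, so both names describe the same letters. RefSeq windows of 300 bases, 250 before and 50 after the start, were found for 8 of the 9 genes, Bnip3l being the exception. The RefSeq start used for Fundc1 lay 318 bases from its GENCODE start, and its window lies inside the gene. That window does not cover the bases before the GENCODE start of Fundc1. Both strands were searched for ACGTG, the CLEAR core, the NRF2 core TGACNNNGC and the FOXO core GTAAACA. The other form of the HIF core, GCGTG, was not searched over all windows. Among the 8 windows ACGTG and the CLEAR core were found only in that of Bnip3, the NRF2 core only in that of Map1lc3b and the FOXO core in 0. The letters GCGTG stand before the starts of Pink1, Bnip3, Optn, Tax1bp1 and Map1lc3b, so a HIF core is not particular to Bnip3. The share of all windows with GCGTG was not taken, so whether the members hold it more often than other genes was not tested. Among all 32544 windows 19.7% held ACGTG, 7.17% the CLEAR core, 12.4% the NRF2 core and 3.66% the FOXO core. A match describes letters and not binding.

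Pink1 (ENSMUSG00000028756, chromosome 4, 138313409 to 138326307), the kinase gene, stood at 30.04 CPM (28.4 to 31.8) in control, 20.8 (19.5 to 22.2) in the photon and 19.7 (18.3 to 21.2) in the proton library. Here the step lay between control and both irradiated libraries, whose intervals overlapped. The photon level was 0.693 of control (0.636 to 0.755), the lowest photon ratio of the 9. The proton level was 0.655 of control (0.596 to 0.719), past the fold limit, but the mean of both libraries was 24.9 CPM, just under the floor of 25, so that Pink1 was not counted in that comparison.

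**Figure D1:**
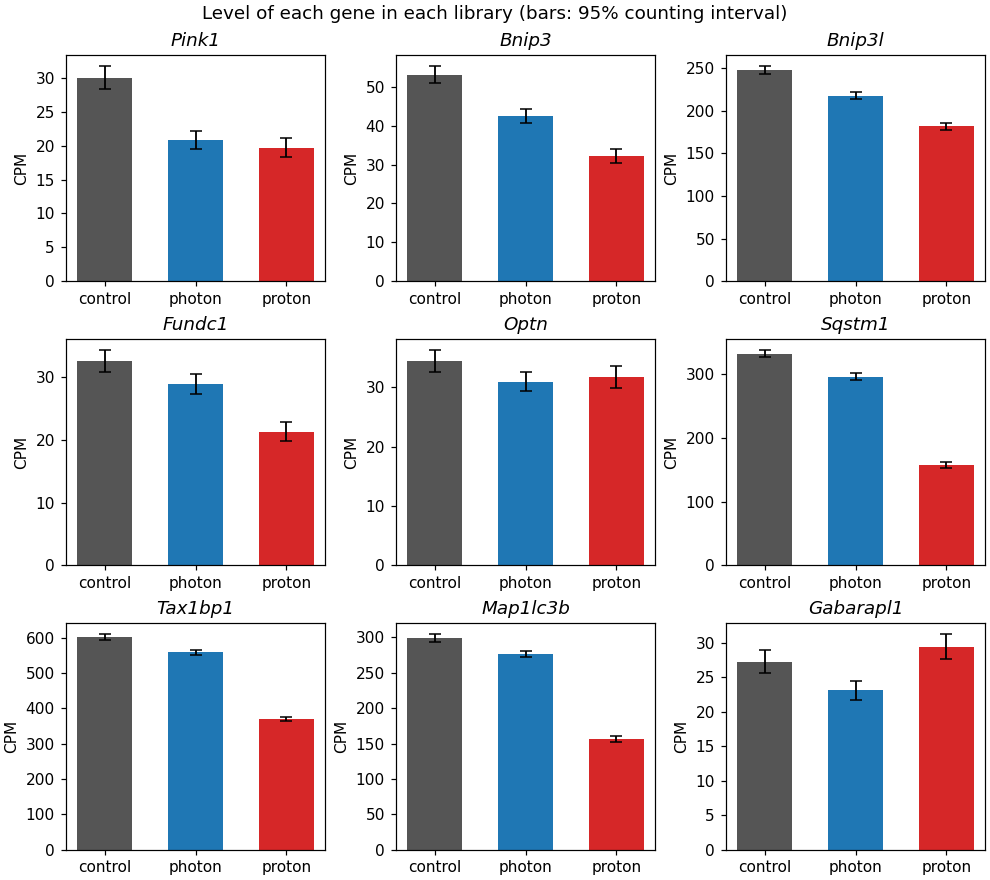
Level of each of the 9 genes (vertical axis, CPM, each panel from 0) in the control, photon and proton libraries, 1 library each, with black bars for the 95% counting interval. Sqstm1, Map1lc3b and Tax1bp1 differ mainly between photon and proton (Sqstm1 from 296 to 158 CPM), Pink1 between control and photon (30.04 to 20.8 CPM), and Gabarapl1 is highest in proton (29.4 CPM).

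Against control, 0 of the 9 genes were counted as higher or lower in photon, where 5.75% of the 5790 genes measured were higher and 8.19% lower. In proton 5 of the 8 measured members were lower (Bnip3, Fundc1, Sqstm1, Tax1bp1 and Map1lc3b) and 0 higher, where 14.9% of 5870 genes were lower and 10.8% higher. Between the irradiated libraries 3 of 8 (Sqstm1, Tax1bp1 and Map1lc3b) were lower in proton, where 16.3% of 5814 genes were lower and 22.7% higher. The comparisons with control share the control library. The median log2 ratio of the members was -0.17 in photon against control, -0.66 in proton against control and -0.42 in proton against photon, beside medians of -0.11, 0.00 and 0.08 over all genes. Relative to the median gene of photon against control, Tax1bp1 and Map1lc3b differed by 0.00 on the log2 scale and Pink1 by -0.42.

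The background shares depend on the scaling. With libraries scaled to the median gene ratio, 8.01% of genes were higher and 4.25% lower in photon against control, and 18.0% and 19.6% in proton against photon. The member counts were the same under that scaling.

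The shares of cells with at least 1 UMI gave the same picture when every cell was thinned to 2000 UMIs. Too shallow for this were 3599 control cells, 4150 photon cells and 6017 proton cells. Sqstm1 was seen in 43.6% of control cells (42.6 to 44.6), 38.8% of photon cells (37.9 to 39.7) and 23.9% of proton cells (22.9 to 24.8). Without thinning these shares were 52.7%, 48.6% and 28.4%. Map1lc3b was seen in 46.3%, 41.6% and 25.8% of thinned cells, and Tax1bp1 in 70.5%, 65.9% and 49.9%. For all 3 genes the proton interval lay below those of both other libraries at equal depth.

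Bnip3l was seen in 40.0% of control, 35.2% of photon and 29.7% of proton cells. Bnip3 was seen in 10.1%, 8.07% and 6.06%, Pink1 in 6.19%, 4.17% and 3.58%, and Fundc1 in 6.51%, 5.83% and 4.04%. Optn (6.23%, 5.74% and 5.61%) and Gabarapl1 (5.26%, 4.48% and 5.74%) varied least. The proton interval lay below the control interval for 7 of the 9 genes, all but Optn and Gabarapl1. That count was not made over all genes, so whether 7 of the 9 is more than usual was not tested. A control cell held UMIs of 2.35 of the 9 genes on average, a photon cell 2.10 and a proton cell 1.54. None (0) of the 9 was seen in 3.68% of control cells, 6.68% of photon cells and 16.2% of proton cells. These genes are expressed in most cell types, so no type here could serve to measure the share that free RNA gives.

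The libraries differed in their mixture of cells, so the ratios were also taken within clusters of similar cells. The joint clustering gave 8 clusters, of which 7 (numbered 0 to 6) held at least 100 cells of each library. Cluster 0, led by Orm3 and Aox3, held 7900 control cells and 636 proton cells, while cluster 1, led by Anks1b and Pcdh9, held 167 control cells and 7485 proton cells. Cluster 2 was led by Vim and cell cycle genes, cluster 3 by the kallikrein Klk1b11, Sorbs2 and Crisp3, and cluster 4 by Igfbp2 and Apoe. Cycling markers summed to 892 CPM in cluster 2 and 841 in cluster 4, beside 181 and 275 in the cells outside each. Cluster 5 held shallow cells (median 923 UMIs) with a median mt- share of 8.93%, and cluster 6 was led by Psca, Sprr2f and other squamous genes. The clusters were made from the same cells, without correction between libraries, so they are not independent of irradiation.

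The ratio of Sqstm1 in proton to control was below 1 in 7 of 7 clusters, as was every interval. The ratios ran from 0.272 in cluster 6 to 0.554 in cluster 1. Map1lc3b and Tax1bp1 were also below 1 in all 7, with 6 intervals below 1 each, the exception being cluster 5. Their ratios ran from 0.438 to 0.691 and from 0.494 to 0.967. In cluster 2 Sqstm1 stood at 242 CPM in control, 225 in the photon and 85.3 in the proton library. Its levels in cluster 3 were 548, 503 and 275 CPM.

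For the other members fewer clusters, or fewer intervals, lay below 1. Bnip3 was below 1 in 6 of 7 clusters, with 3 intervals below 1, from 0.381 in cluster 4 to 1.32 in cluster 5, whose 111 proton cells gave a wide interval (0.0319 to 8.26). In the squamous cluster 6 Bnip3 stood at 79.6 CPM in control, 71.0 in the photon and 76.0 in the proton library, a ratio to control of 0.956 (0.749 to 1.21). Bnip3l was below 1 in 6 clusters with 6 intervals below 1, Pink1 in 7 with 3, and Fundc1 in 6 with 3. Optn was below 1 in 4 clusters and Gabarapl1 in 4, and in cluster 4 Gabarapl1 stood at 10.8 CPM in control and 22.3 in proton, a ratio of 2.06 (1.03 to 4.66).

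With the 7 clusters weighted equally in every library, Sqstm1 was at 0.418 of control in proton, Tax1bp1 at 0.653 and Map1lc3b at 0.577. These 3 alone were counted as lower, where 13.75% of all genes were lower and 8.37% higher. Fundc1 moved from 0.654 to 0.896 and Bnip3 from 0.605 to 0.704. Bnip3 and Fundc1 are thus the 2 of the 5 lower genes that were no longer counted with equal cluster weights.

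**Figure D2:**
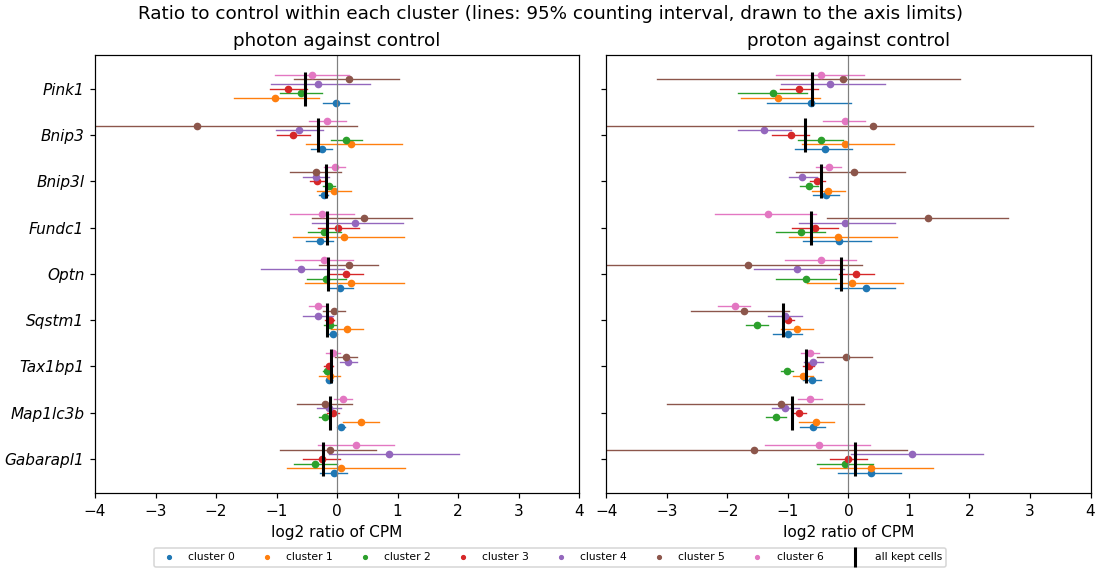
Log2 ratio of CPM to control in photon (left) and proton (right) for each gene (rows) within each of the 7 clusters (coloured points, with 95% counting intervals as lines, cut at the axis limits) and over all kept cells (black bars). Every Sqstm1 point in proton lies left of 0, from a ratio of 0.272 to 0.554, while Optn and Gabarapl1 have points on both sides.

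Within a library, the genes also differed in where they were highest. Sqstm1 was highest in cluster 3 in all 3 libraries. Over clusters 0 to 6 Bnip3 was lowest in the mt-rich cluster 5, at 7.22 CPM (4.41 to 11.1) in control and 1.45 (0.0366 to 8.05) in photon, from counts of 20 and 1. In proton its level there was 9.54 CPM from a count of 1, and the interval (0.242 to 53.2) held the levels of clusters 0 to 4, so that no lowest cluster can be named. Over 19 sums of at least 200 cells (a cluster in a library), the patterns of Bnip3, Bnip3l and Map1lc3b were alike, with Pearson's r of 0.89 for Bnip3 with Bnip3l and 0.94 for Bnip3l with Map1lc3b. Sqstm1 was more like Optn (0.79) and Pink1 (0.74), and Bnip3 with Optn gave -0.49. These sums share libraries and scaling, and r describes log2(CPM + 5) only.

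Among 5846 genes, the pattern most like Sqstm1 was that of Dnajb6 (r 0.95), a chaperone cofactor, then Rab14 and Golgb1. That most like Map1lc3b was Atp6v1g1 (0.97), a subunit of the lysosomal proton pump, then Itm2b and Scp2. Tax1bp1 was most like Lamtor3 (0.93), a part of the lysosomal Ragulator complex, then Zfp91 and Atg3, and Gabarapl1 most like Sdha (0.92), a subunit of respiratory complex II. Bnip3 was most like Ndufb10 (0.94), a subunit of respiratory complex I, then Mpst and Ube2a, and Bnip3l most like Cenpb (0.98), Tmem230 and Sdc4. Pink1 was most like Atp1b1 (0.88), Gsn and Clcn4, Fundc1 like Fam76a (0.91), Smim19 and Ppig, and Optn like Golga4 (0.95), Ggnbp2 and Nipal2.

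Because mitophagy removes mitochondria, the genes were next followed over the mt- share of a cell. In each library the cells of at least 2000 UMIs were cut into 5 equal bins by that share, and levels were taken as CPM of the nuclear genes alone. Bnip3 was the only member that differed by at least 1.2-fold between the top and the bottom bin in the same direction in all 3 libraries. Across all genes 0.48% were lower by that rule and 2.64% higher. In control Bnip3 stood at 98.7, 54.9, 49.1, 47.6 and 44.4 CPM from the lowest to the highest mt- bin, so most of the difference lay between the first and the second bin. In photon it stood at 57.4, 48.8, 44.3, 35.4 and 33.1, and in proton at 34.8, 35.6, 36.3, 30.8 and 27.6.

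The top bin of Bnip3 was thus at 0.450 of the bottom bin in control (0.392 to 0.516), 0.576 in photon (0.492 to 0.673) and 0.792 in proton (0.635 to 0.987). With the bins cut within each cluster these ratios were 0.456, 0.637 and 0.781. Bnip3l, its relative, had ratios of 0.820 (0.768 to 0.876), 0.879 (0.821 to 0.940) and 0.880 (0.806 to 0.960), so every interval lay below 1, but only the control ratio was past 1.2-fold.

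Sqstm1 went the other way in every library, with ratios of 1.12 in control (1.06 to 1.19), 1.52 in photon (1.44 to 1.61) and 1.18 in proton (1.08 to 1.29), past 1.2-fold in photon alone. With bins cut within clusters its ratios were 0.990, 0.987 and 1.06. With bins cut over the whole library, the median ratio of all genes was 1.07 in control, 1.09 in photon and 1.02 in proton. In the same order 30.8%, 37.9% and 12.5% of all genes were at least 1.2-fold higher in the top bin. Optn had ratios of 1.15, 1.54 and 1.11. Cells of cluster 3 made up 8.26% of the bottom bin and 48.6% of the top bin in photon, and with bins cut within clusters the photon ratio of Optn was 1.06. Pink1 had ratios of 1.34 (1.10 to 1.65), 1.49 (1.19 to 1.88) and 0.930 (0.693 to 1.247), and within clusters 1.22, 0.989 and 0.875. Gabarapl1 had 1.27, 1.55 and 1.07, and within clusters 1.01, 1.16 and 1.02. Map1lc3b had 0.885, 1.12 and 0.797, Tax1bp1 0.985, 0.960 and 0.923, and Fundc1 0.947, 1.07 and 1.05.

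**Figure D3:**
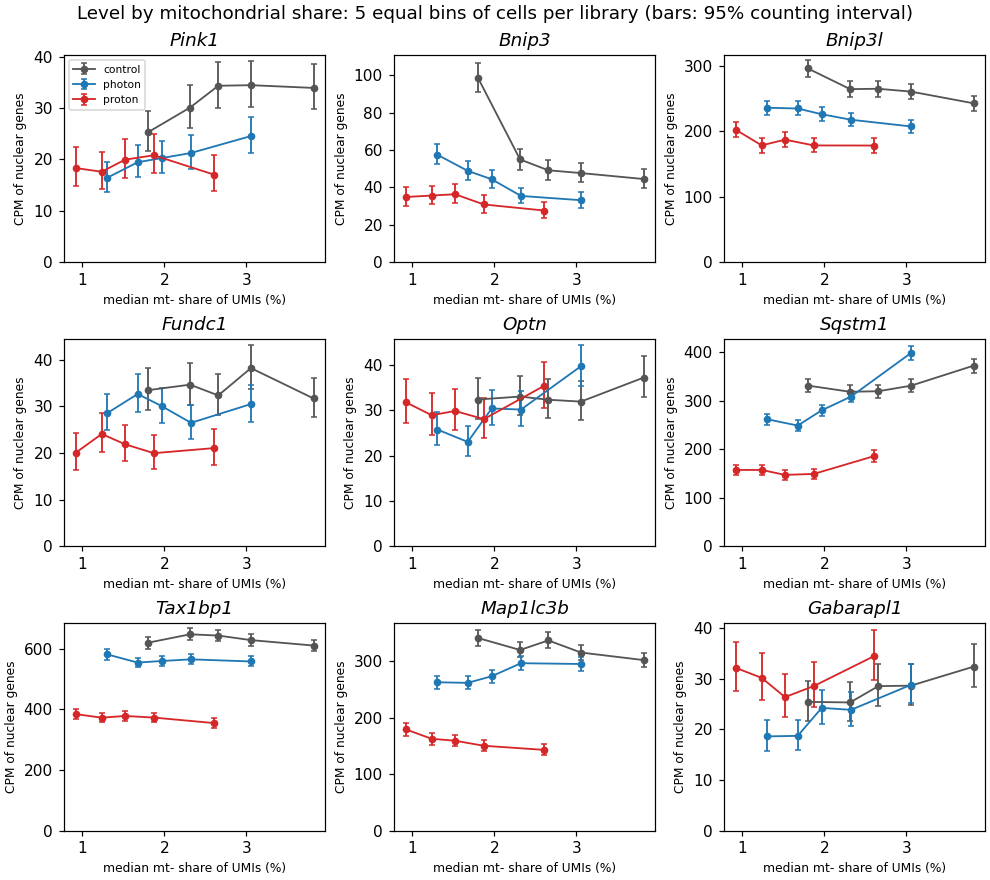
Level of each gene as CPM of nuclear genes (vertical axis, from 0) against the median mt- share of UMIs (horizontal axis, percent) in 5 equal bins of cells for each library, with bars for 95% counting intervals. Bnip3 is highest in the lowest bin of control (98.7) and lower with rising share in control and photon, while Tax1bp1 is nearly level within each library.

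As Bnip3 is a HIF target, 15 measured genes of the HIF list were followed over the same bins. At least 1.2-fold lower in the top bin were 12 of 15 in control, 9 in the photon and 3 in the proton library, beside 8.83%, 16.6% and 8.4% of all genes. At least 1.2-fold higher were 1 in control (Kdm3a, 1.33), 3 in photon (Kdm3a at 1.54, Bhlhe40 at 1.38 and P4ha2 at 1.28) and 0 in proton, beside 30.8%, 37.9% and 12.5% of all genes. Pgk1, a glycolytic enzyme, stood at 0.438 of the bottom bin in control, 0.422 in the photon and 0.997 in the proton library. The prolyl hydroxylase Egln3 stood at 0.361, 0.473 and 0.678, and Ndrg1 at 0.508, 0.817 and 0.756. Egln3 and Ndrg1 were the 2 genes lower in all 3 libraries, and the genes of this paragraph were named after their values were seen. No oxygen measure came with the cells, so the part of hypoxia in the Bnip3 result was not tested.

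Mitochondrial DNA that escapes into the cytosol is a known trigger of interferon responses, and Isg15 encodes a ubiquitin-like protein induced by interferon. At 2000 UMIs, Isg15 was seen in 7.59% of control, 81.1% of photon and 63.8% of proton cells. Cells with at least 3 Isg15 UMIs numbered 4435 in photon and 1525 in proton, and cells with none (0) 2062 and 2874. Control held 50 cells with 3 or more, too few for a ratio under the minimum of 100.

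Bnip3 was the only member past 1.2-fold in the same direction in both irradiated libraries. By that rule 9.77% of all genes were lower and 4% higher, so 1 lower gene among the 9 members is near the share of all genes. In photon it stood at 52.6 CPM in cells without Isg15, 45.7 with 1 to 2 UMIs and 38.3 with 3 or more, a ratio of 0.728 (0.612 to 0.867). In proton it stood at 35.7, 31.7 and 24.97 CPM, with a ratio of 0.700 (0.531 to 0.915). With each cluster given the same weight in both classes, set by its number of cells, the ratios were 0.750 and 0.771. The median mt- share differed little, at 2.08% and 1.91% in photon and 1.57% and 1.46% in proton for cells with none (0) and with 3 or more.

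The 3 genes counted as lower in proton against both other libraries stayed within 1.2-fold with Isg15. Sqstm1 had ratios of 0.998 in photon (0.933 to 1.07) and 0.937 in proton (0.836 to 1.05), Tax1bp1 1.03 and 1.02, and Map1lc3b 0.884 and 1.13. In proton cells without any Isg15 UMI Sqstm1 stood at 159 CPM, against 307 in such photon cells and 315 in such control cells. A cell without an Isg15 UMI at this depth may still hold Isg15 transcripts, and the part of interferon in the Sqstm1 level was not tested. Fundc1 had ratios of 1.41 (1.12 to 1.80) and 1.07 (0.774 to 1.47), Optn 0.858 and 0.753, Bnip3l 1.04 and 0.972, and Gabarapl1 0.937 and 1.04. Pink1 had 1.37 and 0.656 from counts of 71 and 209 in photon and 118 and 41 in proton, and 0.955 and 0.841 when cells were thinned to 1000 UMIs. Fundc1 gave 0.984 and 0.966 at 1000 UMIs.

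Over single cells Spearman's rho with the mt- share lay between -0.0834 (Bnip3, control) and 0.106 (Sqstm1, photon), and with Isg15 between -0.0376 and 0.025. Counts per cell are sparse and share the cell's depth, so these describe little by themselves.

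**Figure D4:**
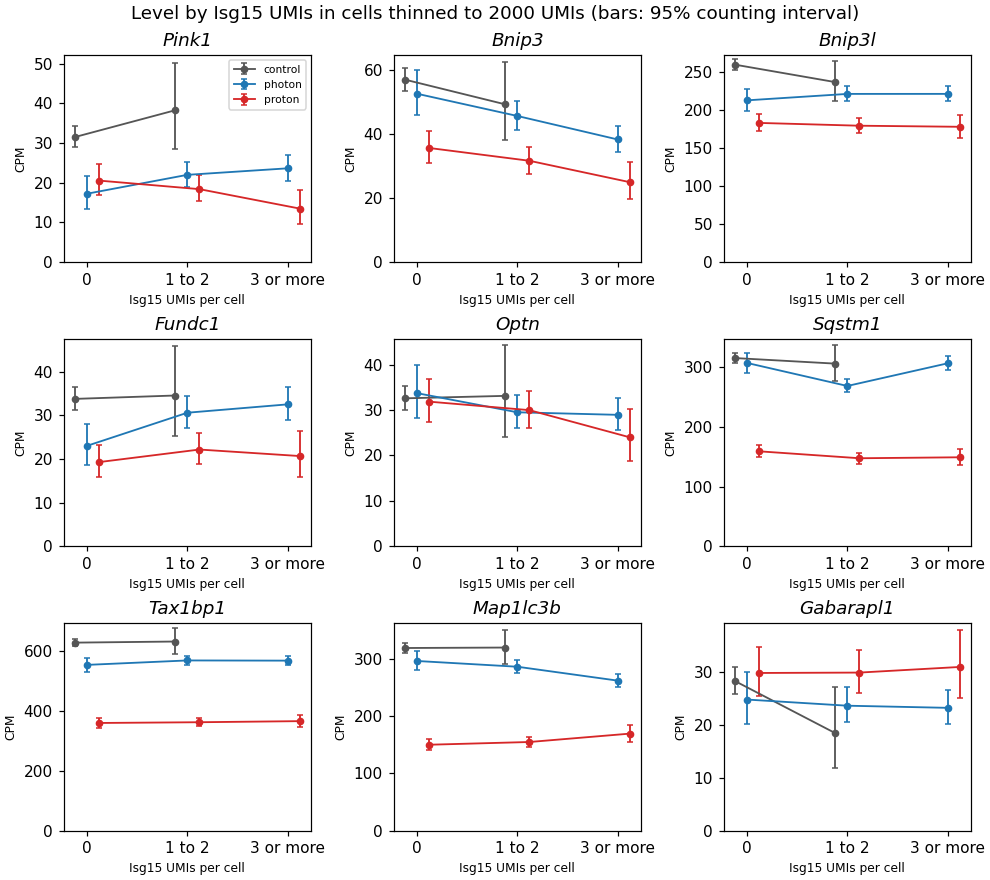
Level of each gene (vertical axis, CPM from 0) in cells with 0, 1 to 2 and 3 or more Isg15 UMIs after thinning to 2000 UMIs, by library, with bars for 95% counting intervals and classes of under 100 cells left out. Bnip3 is lower with more Isg15 in photon (52.6 to 38.3 CPM) and proton (35.7 to 24.97 CPM), while Sqstm1 in proton stays between 148 and 159 CPM.

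The rest of the pathway gives the setting, with each count below taken against control. Over all genes measured, 8.19% were lower and 5.75% higher in photon, and 14.9% lower and 10.8% higher in proton. Of the 3 other ATG8 genes, Map1lc3a (LC3A) was lower in both irradiated libraries, at 583 CPM in control, 303 in the photon and 287 in the proton library. Gabarapl2 was counted as lower in proton, at 179, 162 and 97.1 CPM. Gabarap was within the limit, at 342, 326 and 294.5 CPM. For Map1lc3a the step therefore lay between control and photon, and for Map1lc3b and Gabarapl2 between photon and proton.

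Among 19 other measured mitophagy receptors and regulators, 1 was higher and 1 lower in proton. Tomm7, a subunit of the outer membrane import complex that stabilises PINK1, stood at 159, 202 and 319 CPM, 2.01-fold of control in proton (1.95 to 2.07). Samm50, the lower gene in proton, stood at 47.9 and 31.4 CPM in control and proton. Fis1, with the highest photon ratio, stood at 131 and 174 CPM in control and photon.

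Of the other selective autophagy receptors, 0 of 7 measured were higher or lower in photon and 0 of 6 in proton. Their lowest and highest photon ratios were those of Retreg1 (0.688) and Rtn3 (1.07), and Wdfy3 had the highest proton ratio, 1.27. Of the core machinery, 3 of 20 were lower in photon and 0 higher, beside 8.19% and 5.75% of all genes. In proton 4 of 23 were lower and 1 higher, beside 14.9% and 10.8% of all genes. The lower genes in photon were Rb1cc1, Atg10 and Atg16l1, with Atg10 at 0.612 and Atg101 highest at 1.11. Those in proton were Atg101 (0.512), Becn1 (0.665), the conjugating enzyme Atg3 (0.582) and Vmp1 (0.623), and the higher one Atg7 (1.53).

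In the lysosome list 1 of 19 genes was higher and 1 lower in photon, Npc2 (1.90) and the proton pump subunit Atp6v1a (0.660). In proton 1 of 20 was higher, the protease Ctsd (1.54), and 2 lower, Cd63 (0.664) and the protease Ctsl, at 1206 CPM in control, 1340 in the photon and 430 in the proton library. Of the HIF list, 2 of 15 were higher in photon (Ldha at 1.65 and Pgk1) and 2 lower (Vegfa at 0.567 and Ndrg1). In proton 1 of 15 was higher (Mif, 1.57) and 3 lower (Vegfa, P4ha2 and Ddit4, the last at 0.444).

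Of the 14 NRF2 pathway genes, all measured, 1 was lower in photon, the cystine transporter Slc7a11 (0.409), and 0 higher, with Srxn1 highest at 1.10. In proton 5 were lower and 1 higher, beside 14.9% and 10.8% of all genes. The lower ones were Nfe2l2, which encodes NRF2 (280 CPM in control and 179 in proton), Nqo1 (52.3 and 24.3), Hmox1 (67.0 and 24.5), Slc7a11 (746 and 441) and Prdx1 (0.596 of control), and the higher one the ferritin gene Ftl1 (1.56). The median log2 ratio of this list was -0.20 in photon and -0.34 in proton. The genes beyond the lowest and highest of each list were named after their values were seen.

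Mitochondrial biogenesis genes gave 0 of 12 higher or lower in photon, from Hspa9 (0.806) to Hspe1 (1.48). In proton 3 of 12 were lower (Tfam, Hspa9 and Tomm20) and 0 higher, Nrf1 having the highest ratio, 1.43. Tfam, which packages and transcribes mitochondrial DNA, stood at 54.7 CPM in control, 52.1 in the photon and 25.8 in the proton library. Of the 13 mitochondrially encoded genes 6 were lower in photon and 0 higher, from mt-Nd4l (0.522) to mt-Atp8 (0.815). In proton 7 were lower and 1 higher, from mt-Nd6 (0.169) to mt-Atp8 (1.90).

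A property of the genes moved with the ratios. From the shortest to the longest decile of genes by genomic span, the median log2 ratio ran from 0.19 to -0.39 in photon against control, from -0.15 to 0.36 in proton against control and from -0.35 to 0.75 in proton against photon. Whether reads in introns were counted was not given in the sources used here. Members span 8400 to 53052 bases. With each ratio centred on its span decile, Sqstm1, Tax1bp1 and Map1lc3b were the genes counted as lower in proton against control, at 0.572, 0.583 and 0.619. In proton against photon Sqstm1 then stood at 0.705 and Map1lc3b at 0.749, within the limit, Tax1bp1 at 0.541, and Gabarapl1 at 1.69, past it. The background was then 7.19% higher and 10.6% lower.

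**Figure D5:**
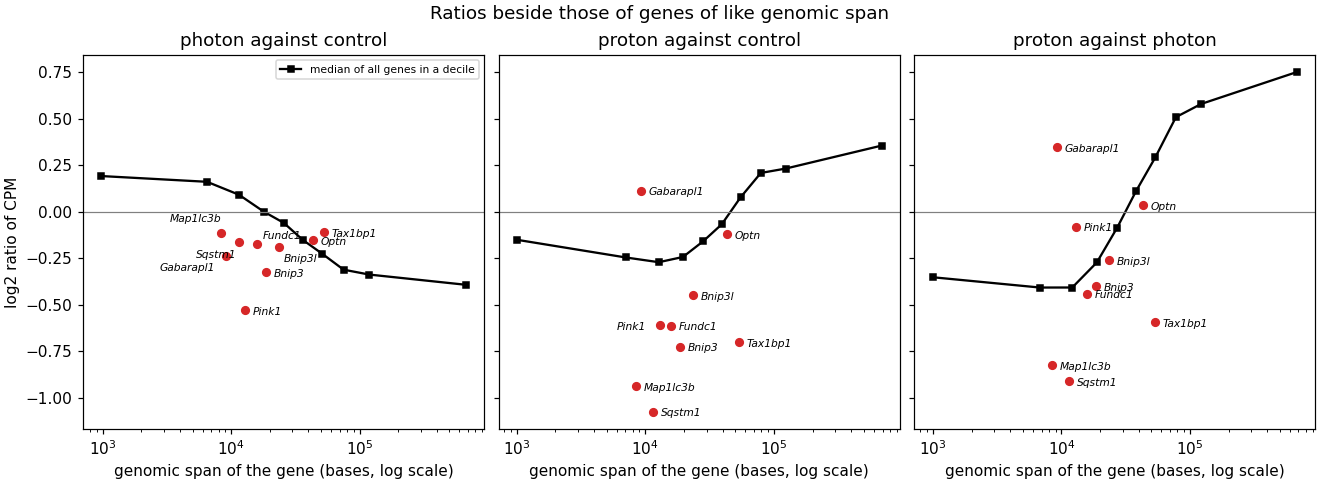
Log2 ratio of CPM (vertical axis) against genomic span in bases (horizontal log axis) for the 9 genes (red points) beside the median of all genes in each decile by span (black squares) in the 3 comparisons. Sqstm1, Map1lc3b and Tax1bp1 lie well under the black line in proton against control, and in proton against photon the line itself runs from -0.35 to 0.75.

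Genes on the other strand overlap some members, and whether counting used strand was not given in the sources used here. Sqstm1 overlaps Mrnip, which was listed at 11.4, 8.37 and 5.45 CPM, and Map1lc3b overlaps Zcchc14, at 14.2, 10.4 and 16.8 CPM, both far below the member's own level.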

How the data were processed

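For every library the authors deposited unnormalized UMI counts per gene and cell barcode, made with Cell Ranger 7.0.1 against mm10 per the submitters' processing notes, although the file headers name version 7.0.0. The annotation release was not given in the sources used here. Deposited totals were 40166701 UMIs (control), 47514102 (photon) and 37116107 (proton). Cells with at least 500 genes and at most 20% mt- UMIs were kept, and counts were summed per library and scaled to CPM (kept totals 39514768, 46936995 and 36692939). A count of 0 allows up to 3 counts. Intervals are exact 95% conditional binomial, Poisson and Clopper-Pearson intervals (scipy 1.17.1) and cover counting error only. Gene positions came from GENCODE M21, which matched 32158 of the 32285 IDs by gene ID, and windows from RefSeq (GRCm38.p6), the assembly that mm10 names.

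Cells of the 3 libraries were clustered together (scanpy 1.11.5, 2000 variable genes, 30 principal components, 20 neighbours, leidenalg 0.10.2 at resolution 0.5). Scrublet marked 0 cells in each library, which was read as a failed call, and doublets stayed in. The ratio code was tested on simulated data. The 9 genes, the pathway and marker lists and the settings were chosen with earlier results of these data known. Named genes are all members, the lowest and highest ratio of each list against control, and the 3 most similar genes of each member. With 1 library per group no paired or replicate analysis was made. Some genes that the rules for named genes would name are not reported here.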

Additional observations from a re-analysis of the deposited data

Results flagged for a closer look

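Pink1 with Isg15 went in opposite directions in the irradiated libraries. Cells with 3 or more Isg15 UMIs over cells with none (0) gave a Pink1 ratio of 1.37 in photon and 0.656 in proton. The difference between the libraries was not tested, since each is 1 library. The classes held 71 and 209 Pink1 counts in photon and 118 and 41 in proton. With cells thinned to 1000 UMIs the ratios were 0.955 and 0.841, both below 1, so that the opposite directions were not seen at that depth.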

How the results depend on the processing

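No ratio of a member that was counted as higher or lower changed direction under the alternatives run. The count of members past the limit moved by over 1.5 times as follows. In photon against control it was 0, and with a lower fold limit it was 2 (Pink1 and Bnip3, both lower). At that limit 29.0% of all genes were lower and 14.1% higher in photon against control. The count was 1 (Pink1) when centred by genomic span. In proton against control it was 5, and it was 3 (Sqstm1, Tax1bp1 and Map1lc3b) as a mean over cells, with clusters weighted equally and when centred by genomic span. In those settings 13.8%, 13.75% and 11.0% of all genes were lower. In proton against photon the count was 3. It was 6 with the lower fold limit and 5 when centred by the GC content of the last 500 transcript bases. Those 6 were 5 lower members and Gabarapl1, which was higher. Past that lower limit 28.9% of all genes were lower and 37.1% higher. Cell filters, all barcodes, the median gene ratio, totals without mitochondrial and ribosomal protein genes, a floor of 5 CPM, thinning, leaving out cluster 5 or the 10% of cells with the most UMIs kept the other counts within 1.5 times. Tax1bp1 was close to the limit in proton against photon and was not counted in some settings. Its ratio was 0.672 without mitochondrial and ribosomal protein genes in the totals, 0.668 with stricter cell filters and 0.675 with equal cluster weights. The share of all genes called higher and lower in photon against control was 6.27% and 3.61% when centred by span and 7.33% and 4.42% when centred by GC, and in proton against photon 15.4% and 18.8% when centred by GC. The span, GC, cluster 5 and most-UMI alternatives were chosen after seeing the data. In photon against control the ratios of Bnip3l, Fundc1, Optn, Tax1bp1 and Map1lc3b lay on the other side of 1 under at least 1 alternative. Bnip3 alone was past 1.2-fold with the mt- share and with Isg15 under every alternative run for those relations. For Isg15 that count is near the share of all genes, 9.77% lower in the main setting. Leaving out doublets was not run, as Scrublet marked none (0). No paired analysis was possible because each group is 1 library. Pink1, Fundc1, Optn and Gabarapl1 were seen in under 7% of cells at 2000 UMIs, which limits their values in small clusters.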

Other observations

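Atg4a, a protease that trims ATG8 proteins, stood at 28.7 CPM in control, 16.9 in the photon and 5.91 in the proton library, a proton ratio to control of 0.206 (0.177 to 0.238). It was not counted because its mean over control and proton was under the floor of 25 CPM. Among the mitochondrially encoded genes mt-Cytb stood at 0.316 of control in proton and mt-Co3 at 0.466, while mt-Atp8, whose reading frame overlaps that of mt-Atp6, stood at 1.90. The mt- share of a cell is therefore a sum over genes whose ratios between the libraries differed.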
